A study of Mus musculus with 12 samples.

Results

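The 9 genes described here, Lama3, Lamb3, Itga6, Itgb4, Itga3, Itgb1, Dst, Plec and Cd151, encode laminin-332 chains, their integrin receptors and the proteins that tie those receptors to the keratin cytoskeleton. They were chosen by name, with earlier results of these data known. Every array probe annotated to a RefSeq transcript of 1 of them was read, which gave 13 probes (2 each for Lama3, Itgb1, Dst and Cd151, and 1 each for the other 5 genes). All 9 were among the 16183 genes that passed a filter on dim probes, and all 13 probes were well above background on all 12 arrays with no saturated spot.

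Total RNA from skin of 12 male mice was hybridised to 1-colour arrays, 1 array per mouse, in a study of what the transcription factor Sox4 contributes to hair regrowth. All mice were of mixed C57Bl6/129Sv background and were sampled 12 days after plucking, which starts a new round of hair growth. WT mice were wild type, and cKO mice had Sox4 conditionally knocked out in skin, by a driver that the sources used here do not name. Exp 1 held 3 WT mice (mice 1, 2 and 3, aged 72, 72 and 69 weeks) and 3 cKO mice (mice 2, 5 and 6, aged 72, 72 and 68 weeks). Exp 2 held 3 WT mice (mice 4, 5 and 6, aged 20, 19 and 18 weeks) and 3 cKO mice (mice 1, 3 and 4, aged 17, 18 and 16 weeks). Age and experiment therefore cannot be told apart.

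Hemidesmosomes are the junctions that anchor basal keratinocytes to the basement membrane. In them the integrin α6β4 binds laminin-332 outside the cell, and the plakin linkers plectin and the epithelial form of dystonin (BPAG1e) connect its tail to keratin filaments inside. The integrin α3β1 binds the same laminin but couples to actin at focal contacts, and the tetraspanin CD151 associates laterally with both integrins. In humans, mutations in laminin-332 chains, in either α6β4 subunit or in plectin cause forms of epidermolysis bullosa, a family of skin blistering diseases.

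Levels are log2 processed signals of a probe minus the 75th percentile of its array. That percentile lay between 364 and 554 intensity units, and the share of probes well above background between 53.9% and 62.6%, with cKO mouse 5 lowest in both. Sox4 ranged from 1.90 to 2.43 in the WT mice and from -4.26 to -2.55 in the cKO mice, so its level followed the genotype labels in every mouse (the probe was well above background on 6 of 6 WT and 4 of 6 cKO arrays). As a check of the tissue, all 7 basal keratinocyte markers passed the filter on dim probes, and their mean level lay between 5.87 and 6.86 in the 12 mice. The hair matrix and shaft markers averaged 3.80 in cKO mouse 5 and between 6.03 and 7.24 in the other 11 mice, so this mouse stood apart. Some results are also given without it, but others that may lean on it are given only with it.

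RefSeq (GRCm38.p6) promoter windows, from 250 bases before to 50 after the transcript start, were scanned for 5 of the 9 genes (Lamb3, Itga3, Itgb1, Dst and Cd151), in 9 windows. Windows of 3 genes are shown for the results they go with: Lamb3, the member with the largest difference between experiments, Cd151, the member whose genotypes did not overlap, and Dst, whose window alone among the 9 held the SOX motif that was searched. Capitals mark matches to GGGCGG (GC box) or AACAAAG (SOX), on either strand, and no matches overlap.
Lamb3, chr1:193301744-193302043, plus strand: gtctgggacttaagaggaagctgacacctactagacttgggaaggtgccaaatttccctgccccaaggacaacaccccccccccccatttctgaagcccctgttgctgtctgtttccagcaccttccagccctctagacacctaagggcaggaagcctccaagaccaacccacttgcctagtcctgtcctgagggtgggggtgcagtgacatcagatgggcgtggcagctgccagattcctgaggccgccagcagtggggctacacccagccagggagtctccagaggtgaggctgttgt
Cd151, chr7:141467112-141467411, plus strand: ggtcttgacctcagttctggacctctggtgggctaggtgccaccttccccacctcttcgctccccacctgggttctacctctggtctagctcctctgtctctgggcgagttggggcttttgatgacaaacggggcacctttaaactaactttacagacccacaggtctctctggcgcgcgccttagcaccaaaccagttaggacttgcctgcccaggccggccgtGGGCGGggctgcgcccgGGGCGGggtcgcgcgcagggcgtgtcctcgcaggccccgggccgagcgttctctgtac
Dst, chr1:34011345-34011644, plus strand: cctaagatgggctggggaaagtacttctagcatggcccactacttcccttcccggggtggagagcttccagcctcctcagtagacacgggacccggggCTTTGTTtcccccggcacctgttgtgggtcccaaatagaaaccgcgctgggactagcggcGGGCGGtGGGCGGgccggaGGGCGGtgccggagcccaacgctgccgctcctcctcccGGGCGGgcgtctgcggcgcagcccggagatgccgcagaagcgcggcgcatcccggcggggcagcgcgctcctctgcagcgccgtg

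The Cd151 window shown held 2 GC boxes and the Dst window shown 4, while the Lamb3 window shown held none. Each of these genes had a second window, not shown, with 0 matches to the motifs searched. The SOX match in Dst is printed as its reverse complement. Over all 9 member windows, GGGCGG matched in 5, AACAAAG in 1 and TGANTCA (AP-1) in 1, an Itga3 window. Of all 32851 promoter windows, 35.7% held GGGCGG, 5.85% held AACAAAG and 7.81% held TGANTCA, and a match shows only that the letters are there.

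Within cKO mice, Lamb3 and Itgb4 were higher in the skin of Exp 1, the older mice, than in that of Exp 2, by 2.44-fold and 1.90-fold (3 mice per group). Both passed the test of limma with Benjamini-Hochberg adjustment over the 16183 genes (adjusted p under 0.05), and no other member did in any comparison. The fitted values of Lama3, Itga6 and Plec had the same sign in both genotypes but missed the threshold. These arrays read bulk skin, so fewer cells of a type and less RNA per cell cannot be told apart.

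Lamb3 encodes the β3 chain of laminin-332. Its level was 2.86, 2.59 and 2.69 in WT mice 1, 2 and 3 of Exp 1, and 1.96, 2.10 and 1.96 in WT mice 4, 5 and 6 of Exp 2. In cKO mice it was 3.00, 3.81 and 2.78 in mice 2, 5 and 6 of Exp 1, and 1.89, 1.65 and 2.18 in mice 1, 3 and 4 of Exp 2. Every mouse of Exp 1 lay above every mouse of Exp 2, with cKO mouse 5 highest and cKO mouse 3 lowest. In cKO the difference was 1.29 ± 0.24 on the log2 scale (SE), or 2.44-fold (adjusted p = 0.0178 in limma), and it was 0.98 without cKO mouse 5 (adjusted p = 0.0249) but no longer passed without cKO mouse 3 (1.16, adjusted p = 0.0713). In WT it was 0.71 ± 0.24, or 1.63-fold, which did not pass (adjusted p = 0.153).

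Lama3 encodes the α3 chain. Its brighter probe read 1.18, 0.50 and 0.74 in the WT mice of Exp 1 and 0.49, 0.12 and 0.40 in those of Exp 2. In cKO it read 0.91, 1.56 and 0.84 in Exp 1 and 0.28, 0.55 and 0.51 in Exp 2. The groups of both genotypes were apart, in WT only just (WT mouse 2 against WT mouse 4), but neither difference passed (WT 0.47 ± 0.22, adjusted p = 0.303; cKO 0.66 ± 0.22, adjusted p = 0.0878, limma). The other Lama3 probe gave 0.30 in WT, where its groups overlapped, and 0.73 in cKO. The mean of both probes, used as the gene's value, passed in cKO (0.70, adjusted p = 0.0475, limma).

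Itgb4 encodes the β4 subunit, whose long cytoplasmic tail binds plectin. Its level was 3.47, 3.38 and 3.20 in the WT mice of Exp 1 and 2.81, 2.91 and 3.02 in those of Exp 2. In cKO it was 3.65, 4.39 and 3.38 in Exp 1 and 2.91, 2.73 and 3.01 in Exp 2. As for Lamb3, all 6 mice of Exp 1 lay above all 6 of Exp 2. The difference in cKO was 0.92 ± 0.22, or 1.90-fold (adjusted p = 0.0318 in limma), and 0.63 without cKO mouse 5 (adjusted p = 0.0451). It missed the threshold when cKO mouse 1, 2, 3 or 4 was left out (adjusted p = 0.0747, 0.0521, 0.109 and 0.0756). In WT it was 0.44 ± 0.22 (1.35-fold), which did not pass (adjusted p = 0.325).

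Itga6 encodes α6, the partner of β4 in the hemidesmosome. It read 5.45, 5.43 and 4.95 in the WT mice of Exp 1 and 4.78, 5.16 and 4.68 in those of Exp 2, which overlap. In cKO it read 5.62, 6.37 and 5.16 in Exp 1 and 4.60, 4.62 and 5.02 in Exp 2, which do not. The cKO difference of 0.97 ± 0.29 (1.95-fold) was close in size to that of Itgb4 but missed the threshold (adjusted p = 0.0586 in limma), and it was 0.64 without cKO mouse 5 (adjusted p = 0.137).

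Plec encodes plectin, the linker from the β4 tail to keratin filaments. Its level was 5.44, 5.36 and 5.16 in the WT mice of Exp 1 against 5.12, 5.14 and 5.23 in those of Exp 2. In cKO it was 5.77, 5.88 and 5.34 in Exp 1 against 5.07, 5.18 and 5.29 in mice 3, 4 and 1 of Exp 2. The cKO groups were apart and the WT groups overlapped. The differences were 0.48 ± 0.15 in cKO (adjusted p = 0.0656 in limma) and 0.16 ± 0.15 in WT (adjusted p = 0.621). Of the 16158 genes with a value on every array, 2809 were likewise apart and higher in Exp 1 in cKO, and 2232 apart and lower. In WT these were 2347 and 2169. Of the members, each read by its brightest probe, 6 were apart and higher and 1 (Cd151) lower in cKO, and 3 higher in WT. The 6 include Itgb1 and the 3 include Lama3. In the other probe the groups overlapped, for Itgb1 in cKO and for Lama3 in WT.

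The other 4 members differed less between the experiments in cKO, and none of them passed. Itga3, the α3 subunit that pairs with β1, ranged from 0.10 to 0.55 in WT and from 0.08 to 0.61 in cKO of Exp 1, and from 0.04 to 0.42 and from -0.09 to 0.08 in Exp 2, with a cKO difference of 0.42 ± 0.18 (adjusted p = 0.152, limma). Itgb1, the β1 subunit shared by many integrins, ranged from 1.53 to 1.84 in Exp 1 and from 1.40 to 1.78 in Exp 2. Its 2 probes gave experiment differences of opposite sign (0.05 and -0.23 in WT, 0.21 and -0.03 in cKO), so no direction is given for it. Dst, which encodes dystonin, ranged from -0.28 to 0.36 in Exp 1 and from -0.70 to 0.39 in Exp 2. Its probes carry accessions of different transcript forms, and neither was checked for the epithelial form. Cd151 was 0.16 ± 0.10 lower in Exp 1 in each genotype (adjusted p = 0.445 in WT and 0.338 in cKO, limma).

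**Figure D1:**
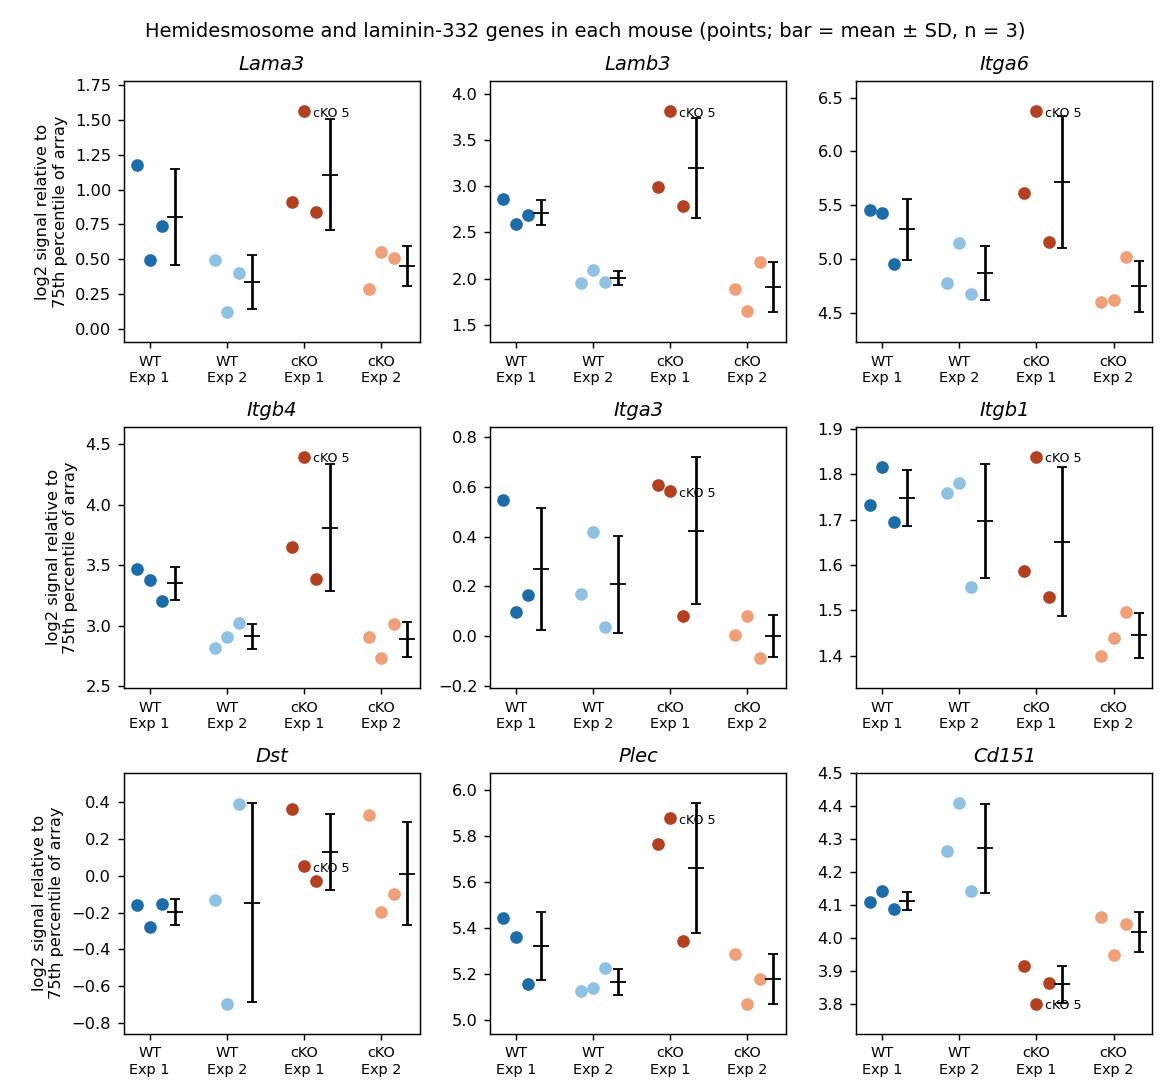
Level of each gene in each mouse (y axis, log2 signal minus the 75th percentile of its array; the range differs between panels) by genotype and experiment (x axis); points are mice and bars the mean ± SD of 3 mice. Lamb3 and Itgb4 lie higher in all 6 mice of Exp 1 than in all 6 of Exp 2, and Cd151 lies lower in all 6 cKO mice than in all 6 WT mice; cKO mouse 5 is marked.

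Over the 9 genes, 2 passed the threshold between experiments in cKO, both higher in Exp 1, against 9.98% of all genes tested in either direction. At an unadjusted p under 0.05 there were 6 members, and 4556 of all 16183 genes. In WT none passed in limma, against 0.84% of all genes, while 1 member (Lamb3) and 2991 of all genes had an unadjusted p under 0.05. The median member difference was 0.48 in cKO, where the median of all genes was 0.03, and 0.16 in WT, where it was -0.01. Complete separation of the 6 mice of Exp 1 from the 6 of Exp 2 was seen for 2 members, against 10.3% of the 16158 genes with a value on every array. The difference of the genotype effect between experiments (interaction) ranged from -0.0010 for Cd151 to 0.58 ± 0.34 for Lamb3; none passed, none had an unadjusted p under 0.05, and 0.00618% of all genes passed. The larger size in cKO than in WT was thus not established for any member. The 2 genotypes' experiment differences come from different mice and share none.

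**Figure D2:**
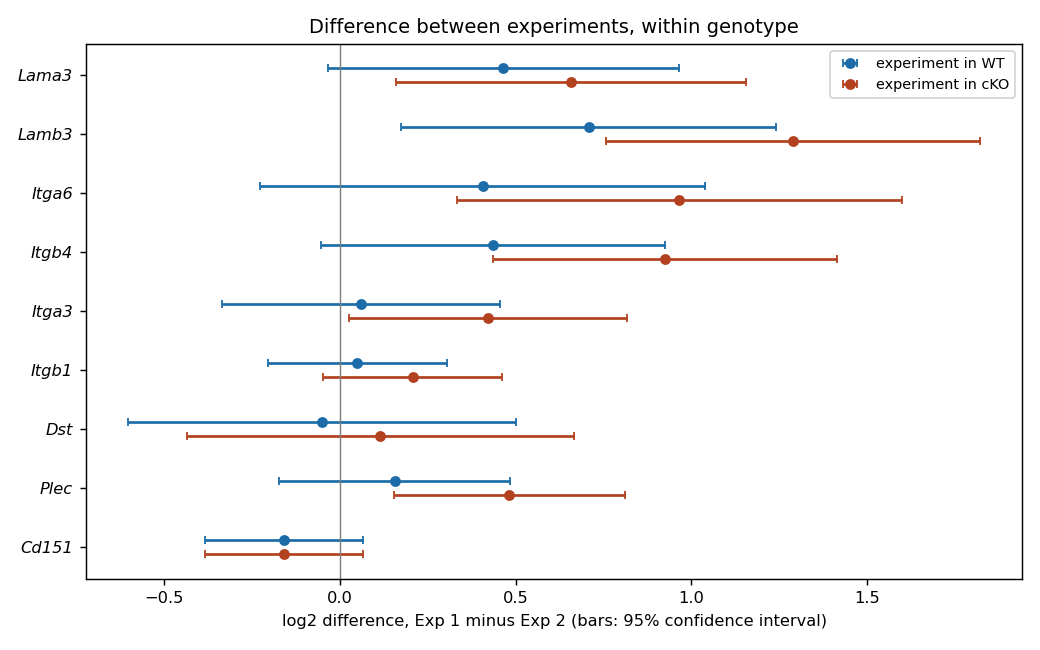
Difference between experiments for each gene (x axis, log2 level in Exp 1 minus that in Exp 2) in WT and in cKO mice; points are fitted differences and bars their 95% confidence intervals from limma, 3 mice per group. Lamb3 reaches 1.29 in cKO and 0.71 in WT, and Dst and Cd151 lie near 0 or below in both.

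Slide differed between the arrays of each group. The array names also carry a tag, P1 or P2, whose meaning the labels do not give. In Exp 2 the WT arrays all carried P2 and the cKO arrays all P1, so tag and genotype cannot be told apart there. The tag was also uneven between the experiments. Among cKO arrays only mice 5 and 6 of Exp 1 carried P2, and among WT arrays only mice 1 and 2 of Exp 1 carried P1. With a term for the tag no member passed between experiments in cKO, while 92 of all 16183 genes did. Arrays lay on 3 slides, with 6 on slide 1 (WT mice 2, 3 and 5, cKO mice 1, 2 and 6), 5 on slide 2 (WT mice 1, 4 and 6, cKO mice 4 and 5) and cKO mouse 3 alone on slide 3. With slide as a block the cKO difference was 1.21 for Lamb3 (adjusted p = 0.0555) and 0.90 for Itgb4 (adjusted p = 0.0789, limma), so neither passed. In that fit 146 of all 16183 genes passed, against 1615 in the reported fit. Within slide 1 the comparison was of cKO mice 2 and 6 with cKO mouse 1 alone, and gave 1.00 for Lamb3 and 0.61 for Itgb4. Within slide 2 it was of cKO mouse 5 with cKO mouse 4, 1 mouse against 1, and gave 1.63 and 1.38. These within-slide values rest on an arm of 1 mouse and are given with no test, and since the 6 mice of each experiment do not overlap for these genes, their sign was fixed beforehand.

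Markers of epidermal cell types moved with these genes. Basal keratinocyte markers were higher in Exp 1 for 7 of 7 in each genotype by their fitted differences, 4 of 7 past the threshold in cKO, where Krt5 differed by 0.73 and Perp by 0.34. Their mean level ranged from 6.22 to 6.39 in WT and from 6.37 to 6.86 in cKO of Exp 1, and from 5.89 to 6.26 and from 5.87 to 6.08 in Exp 2. Over the 12 mice this mean correlated with Itga6 at r = 0.97, with Lamb3 at 0.95, with Itgb4 at 0.91 and with Plec at 0.83 (rho 0.98, 0.92, 0.83 and 0.73), a description over arrays that share their scaling and the experiments. Without cKO mouse 5, r was 0.95, 0.90, 0.85 and 0.69. These correlations were not particular to basal markers. The mean of suprabasal epidermis markers correlated with Itga6, Lamb3, Itgb4 and Plec at 0.98, 0.93, 0.94 and 0.88. The hair matrix and shaft mean correlated with them at -0.88, -0.87, -0.94 and -0.87. Within Exp 2 the basal marker mean of WT mouse 5 overlapped that of Exp 1, whereas its Lamb3 level of 2.10 did not.

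With the basal marker mean as a covariate, the cKO difference of Lamb3 was 0.34 (adjusted p = 0.837) and that of Itgb4 0.15 (adjusted p = 0.936, limma), and that of Itga6 turned to -0.38 (adjusted p = 0.731). In that fit 0 of all 16183 genes passed between experiments in cKO, against 1615 in the reported fit, so the lost threshold is not particular to these genes. The median over the 9 members was then 0.13 in place of 0.48. Suprabasal markers had a higher mean in Exp 1, at 6.10 to 6.47 in WT and 6.19 to 7.55 in cKO of Exp 1, and 5.73 to 6.24 and 5.69 to 5.90 in Exp 2, with 4 of the 7 measured markers higher past the threshold in cKO (Krt10 by 1.19 and Lor by 0.88). The suprabasal marker Ivl ran the other way, with fitted differences of -0.39 in WT and -0.43 in cKO. Hair matrix and shaft markers ran the other way, with 9 of 9 measured lower in Exp 1 in each genotype by their fitted values and none past the threshold. Their mean ranged from 6.14 to 6.63 in WT and 3.80 to 6.70 in cKO of Exp 1, and from 6.95 to 7.24 and 6.83 to 7.15 in Exp 2.

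Other tissues in the samples also differed between the experiments. The mean of 9 skeletal muscle markers ranged from -4.74 to -3.41 in WT and -3.45 to 0.23 in cKO of Exp 1, and from -1.44 to 5.14 and 4.09 to 5.34 in Exp 2, with 6 of 9 lower past the threshold in cKO. All 5 adipocyte markers had lower fitted values in Exp 1 in each genotype (median -1.02 in WT and -1.95 in cKO), none past the threshold. Their mean ranged from 2.33 to 3.36 in WT and -0.41 (cKO mouse 5) to 2.78 in cKO of Exp 1, and from 3.51 to 3.82 and 2.96 to 3.85 in Exp 2, and it correlated with Lamb3 at r = -0.86 and with Itgb4 at -0.92 over the 12 mice (-0.74 and -0.78 without cKO mouse 5). Of 3 macrophage markers, 2 were lower past the threshold in cKO (Csf1r and Mrc1). Of the remaining lists of 6 genes each, bulge and outer root sheath and smooth muscle and pericyte each had 1 gene higher past the threshold in cKO, fibroblast and Schwann cell each had 1 lower, and endothelium had none (medians 0.145, 0.32, -0.10, 0.16 and -0.08). With the muscle mean as a covariate the cKO differences were 1.37 for Lamb3 and 1.08 for Itgb4, as large as before, with adjusted p of 0.189 and 0.209 (limma). Of all 16183 genes, 0 passed there, as with the basal covariate. The part of these cell types in the members' differences was not tested beyond these fits.

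**Figure D3:**
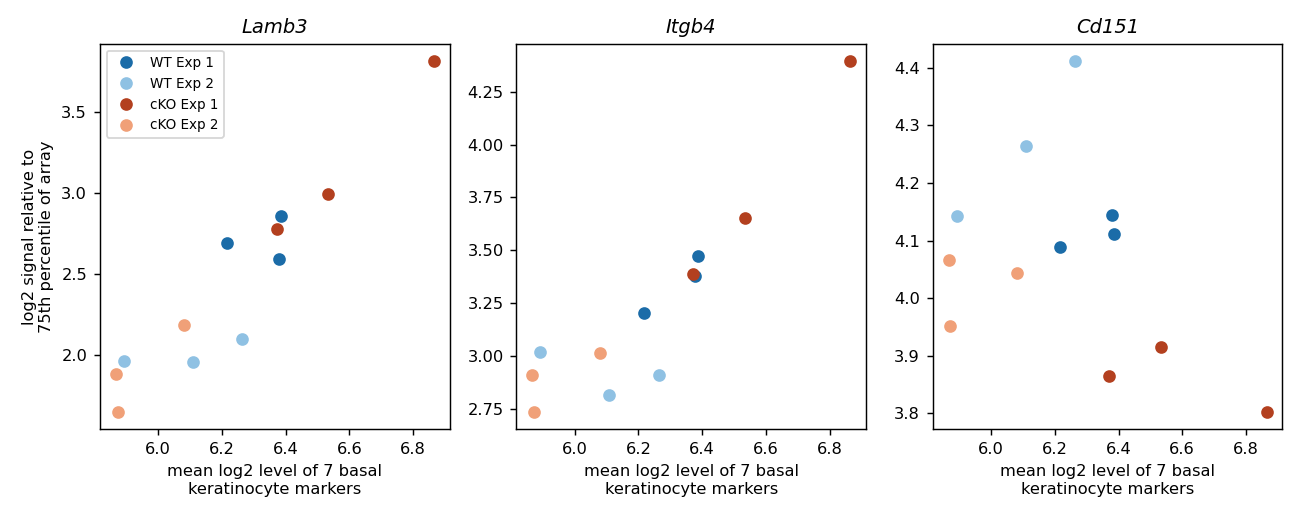
Level of Lamb3, Itgb4 and Cd151 (y axes, log2 signal minus the 75th percentile of its array) against the mean level of 7 basal keratinocyte markers (x axes, same unit); each point is 1 of 12 mice, coloured by genotype and experiment. Lamb3 (r = 0.95) and Itgb4 (r = 0.91) are higher where the marker mean is higher, and Cd151 (r = -0.39) is not. The mean of suprabasal markers, not plotted, correlated with Lamb3 at 0.93 and with Itgb4 at 0.94.

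Between genotypes the tetraspanin Cd151 was the 1 member whose mice fell into separate ranges. Its main probe read 4.11, 4.14 and 4.09 in WT mice 1, 2 and 3 of Exp 1 and 4.26, 4.41 and 4.14 in WT mice 4, 5 and 6 of Exp 2. It read 3.92, 3.80 and 3.86 in cKO mice 2, 5 and 6 of Exp 1 and 4.07, 3.95 and 4.04 in cKO mice 1, 3 and 4 of Exp 2. All 6 cKO mice lay below all 6 WT mice, the closest being cKO mouse 1 at 4.07 and WT mouse 3 at 4.09. The difference, cKO minus WT, was -0.25 ± 0.07 averaged over the experiments (95% confidence interval -0.41 to -0.09), or 1.19-fold lower, and -0.25 in each experiment. It did not pass (adjusted p = 0.204 in limma).

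In the other Cd151 probe the genotypes overlapped, at 0.58 to 1.11 in WT and 0.23 to 0.91 in cKO, with a difference of -0.24. The Cd151 difference kept its sign in all 27 alternative fits, at -0.34 to -0.15, with adjusted p from 0.0843 to 0.965. Of the marker lists, the adipocyte mean correlated with Cd151 at r = 0.64, the hair matrix mean at 0.61, the macrophage mean at 0.58 and the basal keratinocyte mean at -0.39 over the 12 mice. Without cKO mouse 5 these were 0.51, 0.44, 0.54 and -0.10. With the basal marker mean as a covariate the difference was -0.26.

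Itgb1 was 0.17 ± 0.08 lower in cKO by the fitted value (adjusted p = 0.426), and its other probe also had a negative difference, -0.12. In Exp 2 alone the brighter probe read 1.76, 1.78 and 1.55 in WT mice 4, 5 and 6 and 1.40, 1.44 and 1.50 in cKO mice 1, 3 and 4, which do not overlap (difference -0.25 ± 0.12, adjusted p = 0.977, limma). Dst had the largest positive value, 0.24 ± 0.18 (adjusted p = 0.597), with 0.12 for its other probe. In Exp 1 its brighter probe read -0.16, -0.28 and -0.15 in WT and 0.36, 0.05 and -0.03 in cKO mice 2, 5 and 6, so the cKO mice lay higher there, but not in Exp 2, where WT mouse 6 was highest at 0.39. Of the 16158 genes with a value on every array, 915 were likewise apart and higher in cKO in Exp 1, and 1163 apart and lower. In Exp 2 these were 438 and 1597. In the other probe of Itgb1 the genotypes overlapped in Exp 2, and in that of Dst they overlapped in Exp 1.

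Lama3, Lamb3, Itga6, Itgb4 and Plec had smaller fitted differences between the genotypes than between the experiments in cKO. Averaged over experiments, cKO minus WT was 0.22 for Itgb4, 0.21 for Lama3, 0.19 for Lamb3, 0.18 for Plec and 0.16 for Itga6, with adjusted p from 0.52 to 0.78 in limma. In Exp 1 the same differences were 0.46, 0.30, 0.48, 0.34 and 0.44, and in Exp 2 they were -0.03, 0.11, -0.10, 0.01 and -0.12. Without cKO mouse 5, which had the highest level of all 12 mice for each of these 5 genes, the averaged value of Itga6 was -0.0077 and the member median in Exp 1 was 0.11 in place of 0.32.

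No member passed for genotype in any of the 3 comparisons in limma, against 0.42% of all genes averaged over the experiments, 0.117% in Exp 1 and 0.0618% in Exp 2. At an unadjusted p under 0.05 there were 1 (Cd151), 2 (Cd151 and Plec) and 1 (Cd151), beside 1967, 1829 and 755 of the 16183 genes. The member median was 0.18 averaged, 0.32 in Exp 1 and -0.10 in Exp 2, beside -0.04, -0.02 and -0.06 over all genes. Separation of all 6 cKO from all 6 WT mice was seen for 1 member and for 1.26% of the 16158 genes, of which 9 were higher and 194 lower in cKO.

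**Figure D4:**
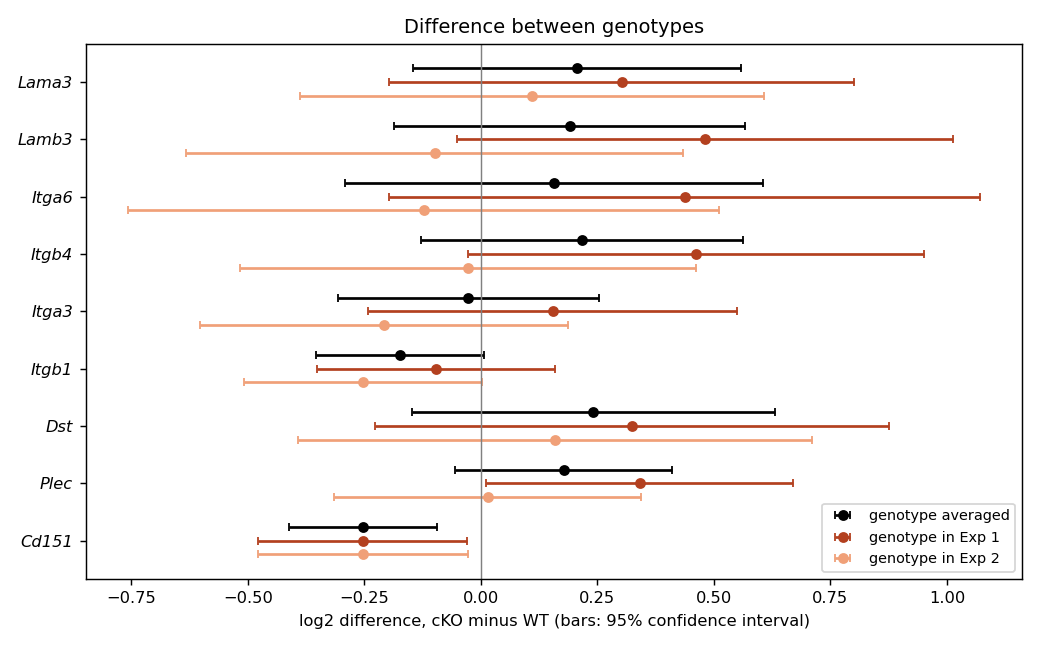
Difference between genotypes for each gene (x axis, log2 level in cKO minus that in WT) averaged over the experiments and within each; points are fitted differences and bars their 95% confidence intervals from limma, 3 mice per group in an experiment. The interval of Cd151 lies below 0 in all 3 comparisons, at -0.25, and that of Plec lies above 0 in Exp 1 (0.34).

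The members fell into a correlated set and a remainder. Over the 12 mice Lamb3 correlated with Itgb4 at r = 0.97, with Itga6 at 0.93 and with Plec at 0.86, and Itgb4 with Itga6 at 0.94 and with Plec at 0.93. Without cKO mouse 5 these were 0.96, 0.86, 0.75, 0.87 and 0.87. Lama3 correlated with Lamb3 and with Itgb4 at 0.87 each, with Itga6 at 0.79 and with Plec at 0.78, and at 0.76, 0.74, 0.56 and 0.59 without cKO mouse 5, on which its place in the set therefore rests in part. The partners Itga3 and Itgb1 correlated at 0.57, and Dst correlated with its fellow plakin Plec at 0.41. Cd151 had negative values with 7 of the other 8 members, from -0.70 with Lama3 to -0.12 with Itga3, and 0.31 with Itgb1. Without cKO mouse 5 its values were 0.14 with Itga3, 0.65 with Itgb1 and -0.10 with Itga6, so 6 of 8 were negative. These values describe 12 mice that share their groups and array scaling.

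**Figure D5:**
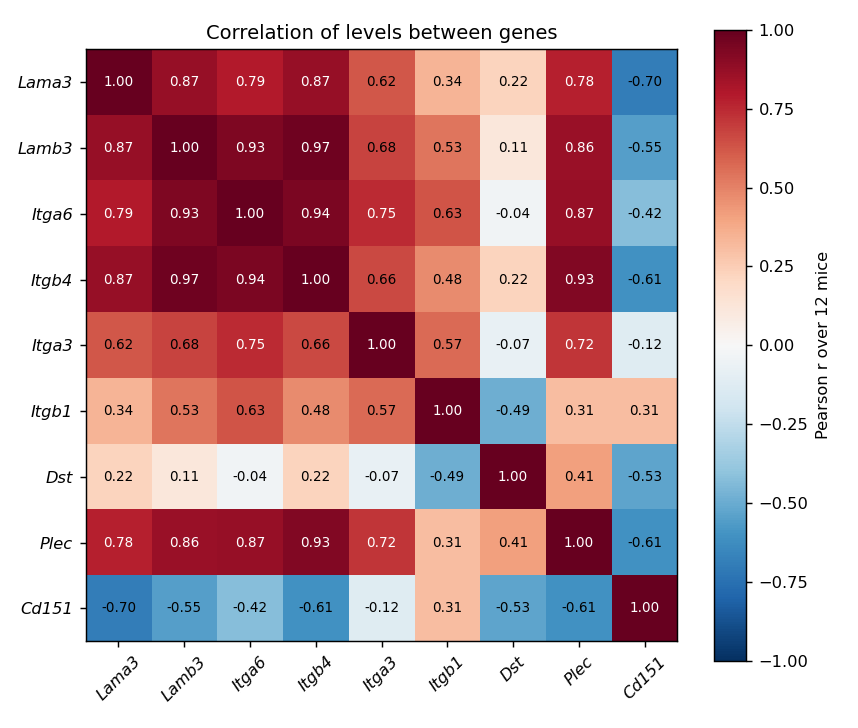
Pearson correlation between the levels of each pair of genes over 12 mice (colour scale from -1 to 1, value printed in each cell). Lama3, Lamb3, Itga6, Itgb4 and Plec form a block of values from 0.78 to 0.97, while Dst and Cd151 stand outside it.

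Among all genes tested, the non-members whose level ran closest to each member over the 12 mice were named by Pearson r. For Lamb3 they were Cnnm1 (r = 0.99), BC021767 and Itpr3 (0.98 each), and for Itgb4 Atp10b, Cnnm1 (0.99 each) and Ikzf2 (0.98). For Itga6 they were Tmprss13, Niban2 and Syvn1 (0.98 each), for Plec Dock6 and Rasal1 (0.96 each), and for Lama3 Ank (0.96), BC024139 (0.95) and Zfp119b (0.93). Cnnm1 stood on the lists of both Lamb3 and Itgb4. The remaining members had Arvcf (0.96), Itpkc (0.94) and Septin5 (0.93) for Itga3, Ppp4r1, Pheta1 (0.94 each) and Crabp1 (0.93) for Itgb1, Klhdc1 (0.91), Svil (0.90) and Zbtb20 (0.88) for Dst, and Apeh (0.98), Tmsb10 (0.96) and Rbbp4 (0.95) for Cd151. These are the highest of 16183 genes, ranked over 12 mice that share their groups, and no test was made of them.

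Col17a1, which encodes the transmembrane collagen XVII (BP180) of the hemidesmosome, ranged from 4.37 to 4.66 in WT and 4.65 to 5.88 in cKO of Exp 1. It ranged from 3.59 to 3.80 in WT and 3.47 to 4.04 in cKO of Exp 2. Its level was higher in all 6 mice of Exp 1 than in all 6 of Exp 2, and in cKO it passed the threshold, at 1.43 ± 0.29 (adjusted p = 0.0227, limma). That cKO difference passed in 19 of 27 alternative fits. In WT the difference was 0.85 (adjusted p = 0.155), and between genotypes it was 0.27 on average (adjusted p = 0.614), neither past the threshold.

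Of the 8 other laminin chains, 1 was lower in Exp 1 in cKO, Lamc1 (-0.67, adjusted p = 0.0388), the γ1 chain of most laminins outside laminin-332, and none was higher; the list median was -0.18. Lamc1 passed in 7 of 27 alternative fits. Of 18 basement membrane scaffold and anchor genes, 3 were higher and 3 lower in that comparison, with a median of -0.17. Col7a1, the anchoring fibril collagen that binds laminin-332 from the dermal side, was higher by 1.42, Col4a6 by 1.04 and Agrn by 0.53. Col4a1 was lower by a log2 difference of -0.94, Nid1 by -0.83 and Nid2 by -1.02 (adjusted p from 0.0106 to 0.043 for the 6, limma). Of 27 alternative fits, Col4a6 passed in 21, Col7a1 in 19, Nid1 in 12, Nid2 in 11, Agrn in 10 and Col4a1 in 7. With the basal marker mean as a covariate the value of Col4a1 was 0.03.

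Of 13 other integrins and tetraspanins, Itga8 (0.92) and Itgb8 (0.75) were higher and Itga1 (-0.45) lower past the threshold in Exp 1 in cKO, with a list median of 0.17. Of 27 alternative fits, Itga8 passed in 21, Itgb8 in 4 and Itga1 in 3. Of 5 other plakins, 1 passed, epiplakin (Eppk1), higher by 1.06 ± 0.24 (adjusted p = 0.0274), and all 5 had positive values, with a median of 0.38. Eppk1 passed in 18 of 27 alternative fits. Of 11 integrin adaptors, which link β1 and other integrins to actin, none passed in limma, 3 had an unadjusted p under 0.05, and the median was -0.16. In WT none of the 56 genes on these lists passed in limma, and 9 had an unadjusted p under 0.05.

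Between genotypes none of the 56 genes passed in any comparison in limma, while 4 had an unadjusted p under 0.05 averaged over the experiments. Those with the smallest p were Itga8 (0.31, adjusted p = 0.268) among integrins, Fras1 (-0.42, adjusted p = 0.298) and Frem1 (0.28, adjusted p = 0.38) among basement membrane genes, and the focal adhesion kinase gene Ptk2 (-0.21, adjusted p = 0.379) among adaptors. All 11 integrin adaptors had negative values, with a median of -0.12 beside -0.04 over all genes, of which 9342 of 16183 were negative. Of the other laminin chains, Lamb1 came closest (-0.33, adjusted p = 0.411), and of the other plakins Eppk1 (0.36, adjusted p = 0.423).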

How the data were processed

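Skin RNA of 12 mice was read on 12 one-colour arrays. Per the labels' protocols, Trizol extracts were cleaned with a QIAGEN kit, amplified from a T7 promoter and labelled with Cy3. The deposited scanner files (Feature Extraction 11.5.1.1) give the processed signal as a background-subtracted intensity that is not scaled between arrays, per the file headers. Their 0 or 1 flags, per the file headers, mark outlier, saturated and well-above-background spots. The authors' deposited value table is in log2 units. The submitters' processing notes name limma, and the sources used here do not give the other steps behind that table. Each of its columns followed its own array (rho of at least 0.998) except that of cKO mouse 1 (rho = 0.951), so it served as an alternative only. Its column medians were 6.76 to 6.77, and its centring is not known.

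Outlier spots were dropped, log2 signals were averaged per probe, and each array was set to its 75th percentile. Probes were named by matching accessions to the RefSeq gene table of GRCm38.p6, which named 27509 of 55681. A probe was kept when well above background on at least 3 arrays, and the brightest kept probe stood for its gene. For the 16183 genes, limma 3.58.1 (R 4.3.3) fitted a mean per group (4 groups; residual degrees of freedom 8, prior 2.3) and 6 contrasts: cKO minus WT averaged and in each experiment, their difference, and Exp 1 minus Exp 2 in each genotype. Two-sided p-values were Benjamini-Hochberg adjusted over all genes, at a threshold of 0.05. Errors are SD for groups and SE for differences. The number of arrays limits the precision. The fit was tested on simulated data.

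The members, the 6 pathway lists and the marker lists were chosen with earlier results of these data known. Genes named were the members, Sox4, the 3 genes most like each member, pathway genes past the threshold or among the 3 smallest p of their list for the averaged genotype difference, and the 2 brightest markers of a list; values are given for some of these, and 2 genes that these rules name are not reported here. Flg, Krt85 and Cd68 were not analysed here. Alternatives were slide, the tag in the array names, background correction, scaling, filters, probe choice, array weights, the authors' table, marker covariates and leaving out each mouse.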

Additional observations from a re-analysis of the deposited data

How the results depend on the processing

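Between experiments in cKO, 2 members passed the threshold in the reported fit, where 1615 of all 16183 genes did. With a slide block 0 members passed (146 of all genes), and with a term for the array-name tag 0 (92). With the authors' values 0 members passed (62 of all genes), and 1 (1057) in the authors' table without cKO mouse 1. With either the skeletal muscle or the basal keratinocyte covariate 0 members and 0 of all genes passed. No count is given for the within-slide fits. Each within-slide fit has arms of 1 mouse, assumed to vary like the other groups. Leaving out 1 mouse gave 0 to 5 members. There were 0 without cKO mouse 3 (157 of all genes) and 5 without cKO mouse 6 (2324). There was 1 without cKO mouse 1, 2 or 4 (591, 886 and 196 of all genes). In WT the count of 0 became 2 with array weights and lay between 0 and 1 with a mouse left out (1 without cKO mouse 5). Of all genes, 136 passed in WT in the reported fit, 3348 with array weights and 597 without cKO mouse 5. The member median between experiments was 0.45 in WT and 0.70 in cKO within slide 2, and 0.13 in cKO with the basal covariate. For genotype in Exp 1 it was 0.097 with the basal covariate and 0.11 (without cKO mouse 5) to 0.43 with a mouse left out. In Exp 2 it was 0.083 with a slide block, 0.30 in the authors' table and 0.095 with the basal covariate, and for the interaction 0.036 in the authors' table and -0.021 with the basal covariate. Under the other alternatives, within-slide fits aside, the count was 2 or 3 between experiments in cKO and 0 in every other comparison. The other medians moved by less than the spread of the member mean between mice (SD 0.17). No paired analysis was possible because the groups compared share fewer than 2 replicate numbers.

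Single genes lost the threshold in 189 of 2050 values and gained it in 13. They changed sign in 73, of differences that had not passed the threshold, except Col4a1 between experiments in cKO, and the causes were not tested. Between experiments in WT, Dst was 0.48 within slide 1, 0.55 with the muscle covariate and 0.18 with the basal covariate. Itga3 there was -0.29 within slide 1, -0.26 with the muscle covariate, -0.11 with the basal covariate, -0.083 with the tag and -0.079 with median scaling, and Itga6 was -0.090 with the basal covariate. Itgb1 there was -0.025 within slide 1, -0.090 with median scaling, -0.087 over all probes, -0.0005 with array weights, -0.027 with the muscle covariate and -0.092 with the basal covariate. In cKO, Dst was -0.17 within slide 1 and -0.25 in the authors' table, and the basal covariate gave -0.053 for Itga3, -0.38 for Itga6, -0.18 for Itgb1 and 0.031 for Col4a1. With 1 mouse left out, Dst ranged from -0.33 to 0.22 in WT and -0.0014 to 0.28 in cKO, Itga3 from -0.078 to 0.17 and Itgb1 from -0.022 to 0.092 in WT.

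For genotype averaged, Dst was -0.0087 within slide 2, Itga3 was 0.017 with array weights and 0.097 with the muscle covariate, and slide 1 gave -0.18 for Itga6, -0.11 for Col17a1 and 0.084 for Pxn. Parva was 0.0065 in the authors' table. With 1 mouse left out the ranges were -0.072 to 0.059 for Itga3 and -0.0077 to 0.30 for Itga6. In Exp 1, Itgb1 was 0.11 within slide 2, and the basal covariate gave -0.038 for Itga3 and -0.11 for Itga6.

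In Exp 2, slide 2 gave -0.23 for Dst, 0.29 for Itga6, 0.097 for Itgb4 and 0.22 for Lamb3, and slide 1 gave 0.0011 for Itgb4. The slide block gave 0.099 for Itgb4 and 0.083 for Lamb3, the tag 0.034 for Lamb3 and -0.19 for Plec, median scaling -0.031 for Lama3 and -0.13 for Plec, the muscle covariate -0.021 for Dst and -0.022 for Lama3, and the basal covariate 0.19 for Itga6, 0.15 for Itgb4 and 0.12 for Lamb3. Itgb4 was 0.0025 with normexp and quantile scaling and 0.061 with array weights. The authors' table gave 0.25 for Itga6, 0.30 for Itgb4 and 0.43 for Lamb3, and without cKO mouse 1 it gave -0.046 for Dst and 0.020 for Itga6. With 1 mouse left out the ranges were -0.12 to 0.43 for Dst, -0.26 to 0.018 for Itga6, -0.091 to 0.048 for Itgb4, -0.24 to 0.029 for Lamb3 and -0.039 to 0.068 for Plec. The interaction was -0.0001 for Itgb4 and -0.021 for Lamb3 with the basal covariate.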
